A study of Mus musculus with 16 samples.

Results

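The values described here are differences between 2 responses to IL-33, the change with IL-33 in mast cell cultures from Nbeal2-/- mice minus the change in cultures from wild-type (WT) mice. All 16 libraries entered: 4 of Nbeal2-/- cells with IL-33, 4 of untreated Nbeal2-/- cells, 4 of WT cells with IL-33 and 4 of untreated WT cells. The mice shared a C57BL/6 background, and poly(A) RNA was sequenced in strand-specific libraries. Every gene with enough counts was a member, which left 15470 genes tested of 55487 listed. A response is the log2 fold change of IL-33 over untreated within a genotype. A positive difference means that the Nbeal2-/- response lay above the WT response, and a negative one that it lay below. The title of the study calls the cells bone marrow derived mast cells, whereas the cell type label reads mononuclear cells. The sources used here do not give the IL-33 dose or time, how old the cultures were, which part of Nbeal2 was deleted, or whether each replicate was a separate animal.

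IL-33 is a cytokine of the IL-1 family that is released by damaged tissue. Mast cells carry its receptor ST2, encoded by Il1rl1, which signals through MyD88 to NF-kB and MAP kinases, and they answer with chemokines, cytokines and changed protease stores. Nbeal2 is a large BEACH-domain protein needed for the alpha-granules of platelets, and its loss underlies gray platelet syndrome in humans. A difference of responses can arise in several ways: a gene can fall further, rise less, rise further or fall less in one genotype, or move in opposite directions. These classes are kept apart throughout.

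Library totals ran from 36405209 to 51419415 counts in Nbeal2-/- cells with IL-33, 44109341 to 52066492 in untreated Nbeal2-/- cells, 40050802 to 57694499 in WT cells with IL-33 and 39080187 to 54894255 in untreated WT cells. All 8 mast cell markers were detected in every library. In counts scaled to library size as CPM, 6 of them exceeded 1000: Kit at 1050 to 4340, Il1rl1 at 3100 to 4710, the IgE receptor chains Fcer1a at 4850 to 6220 and Ms4a2 at 1540 to 1960, carboxypeptidase Cpa3 at 14500 to 23000 and Gata2 at 1720 to 2230. The transcription factor Mitf was lower, at 78.7 to 161 CPM, and histidine decarboxylase Hdc lowest, at 4.03 to 45.2 CPM. The label mast cell was kept. Transcripts of Nbeal2 averaged 70.7 ± 5.38 CPM in Nbeal2-/- cells with IL-33 and 92.6 ± 8.13 CPM untreated, against 236 ± 35.2 CPM in WT cells with IL-33 and 377 ± 103 CPM untreated (SD, n = 4 each). The difference of the 2 responses of Nbeal2 itself was 0.29 ± 0.24 (log2, SE) and missed the threshold (adjusted p = 0.554, edgeR quasi-likelihood test). Libraries that shared a number within a genotype deviated together, and those numbered 1 stood apart from the other numbers. Xist ranged from 0 to 1850 CPM over the libraries, so the cultures differed in sex. None of 5 sex-linked genes was called for the difference, but a gap that stays the same within a culture drops out of its response. The median response of those 5 was 1.07 in WT culture 4. It was -0.048 to 0.151 in the other WT cultures and 0.016 to 0.327 in Nbeal2-/- cultures. The part of sex in the differences was not tested.

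The difference of responses passed the threshold, a Benjamini-Hochberg adjusted p of 0.05 over all genes tested in the edgeR quasi-likelihood test, for 706 genes, or 4.56% of those tested. It was positive for 311 genes (2.01%) and negative for 395 (2.55%). These shares are the ones to set beside the counts of each gene list below. Most differences were modest, with a median size of 0.47 (log2) among the positive and 0.48 among the negative, and 58 genes (0.375%) exceeded 2-fold. The response within a genotype was far broader. In Nbeal2-/- cells 27.2% of genes were called higher and 27.9% lower with IL-33, against 28.9% and 28.6% in WT cells. The responses of the 4 Nbeal2-/- and the 4 WT cultures, taken within each number, did not overlap for 678 of the 706 genes (96%), beside 14.0% of all genes tested. That figure describes the called genes and is no further test, since both use the same libraries.

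Classes go by the signs of the fitted responses, whether or not each response passed the threshold alone. Larger falls formed the largest single class in edgeR's test, though DESeq2's test gave 242 of them beside 255 smaller falls. By edgeR's test both responses were negative in 177 genes and that of Nbeal2-/- cells was the lower, with median responses of -0.85 in Nbeal2-/- and -0.24 in WT. In a further 132 genes both were negative and the fall was smaller in Nbeal2-/- cells, at -0.51 in Nbeal2-/- and -0.94 in WT. Rises were larger in Nbeal2-/- cells for 115 genes, with medians of 1.42 in Nbeal2-/- and 0.76 in WT, and smaller for 87 genes, with medians of 0.21 in Nbeal2-/- and 0.59 in WT. The fitted responses had opposite signs in the other 195 genes, of which 131 were negative in Nbeal2-/- and positive in WT and 64 the reverse. Both single responses passed the threshold in 48 of those 195, namely 38 of the first kind and 10 of the second.

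**Figure D1:**
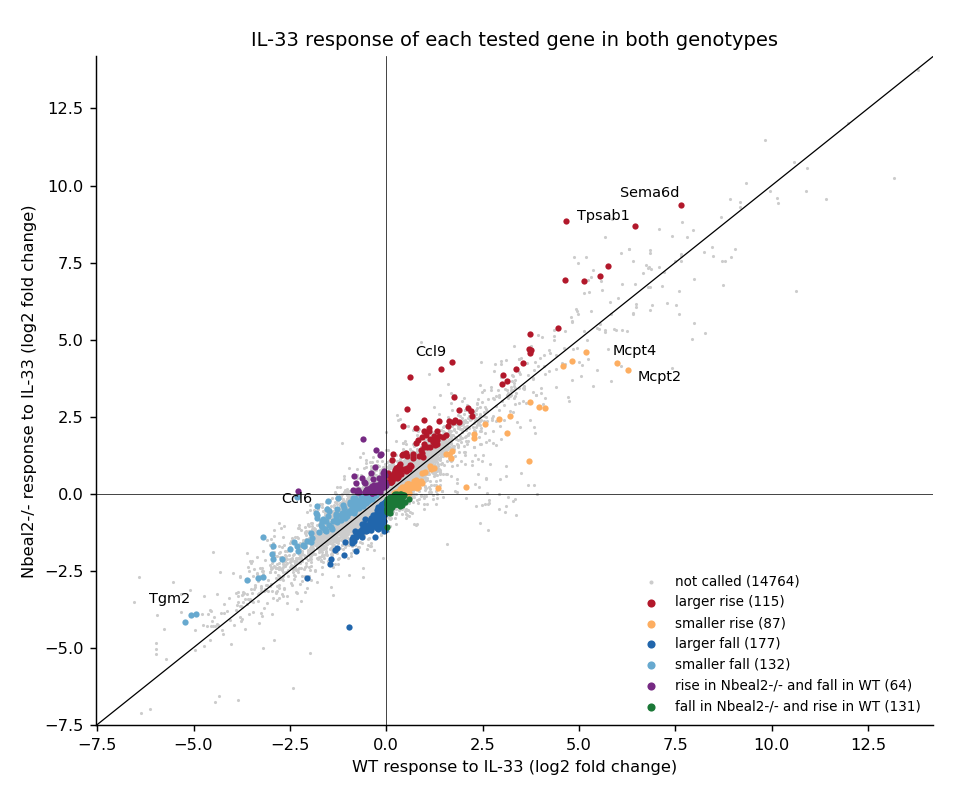
Each point is 1 tested gene, with its WT response to IL-33 on the x axis and its Nbeal2-/- response on the y axis (log2 fold change). Grey points missed the threshold for the difference, coloured points are the 706 called genes by class, and the called genes lie close to the diagonal, with 58 of them over 2-fold away from it.

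The plot of both responses shows that most called genes moved the same way in both genotypes. Responses over the whole transcriptome were of similar size. The root mean square of the log2 response over all genes tested was 0.947, 0.923, 0.937 and 0.927 in the 4 Nbeal2-/- cultures, against 0.902, 0.978, 0.993 and 0.937 in the 4 WT cultures. The WT values spread over a wider range and enclosed the Nbeal2-/- values. The mean difference was -0.0191, with p = 0.4 in a two-sided exact permutation test, for which the smallest possible p was 0.0286.

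How many genes were called depended on single libraries. Without 1 library the count lay between 439 and 1174. It rose to 1174 without untreated WT replicate 1. It dropped to 462 without untreated WT replicate 2, 439 without WT IL-33 replicate 4, 442 without Nbeal2-/- IL-33 replicate 1, 461 without Nbeal2-/- IL-33 replicate 3 and 462 without untreated Nbeal2-/- replicate 4. Over the 16 such fits larger falls numbered 113 to 232, smaller falls 73 to 246, larger rises 70 to 173 and smaller rises 40 to 141. Genes negative in Nbeal2-/- and positive in WT numbered 85 to 254, the reverse 34 to 128, and the opposite genes with both responses called 31 to 91. With the culture number as a block within each genotype, the count was 932, those positive in Nbeal2-/- and negative in WT numbered 107, and the opposite genes with both responses called numbered 77. Leaving out a whole replicate number from all groups gave 1279 genes without number 1, but 171, 166 and 86 without numbers 2, 3 and 4.

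**Figure D2:**
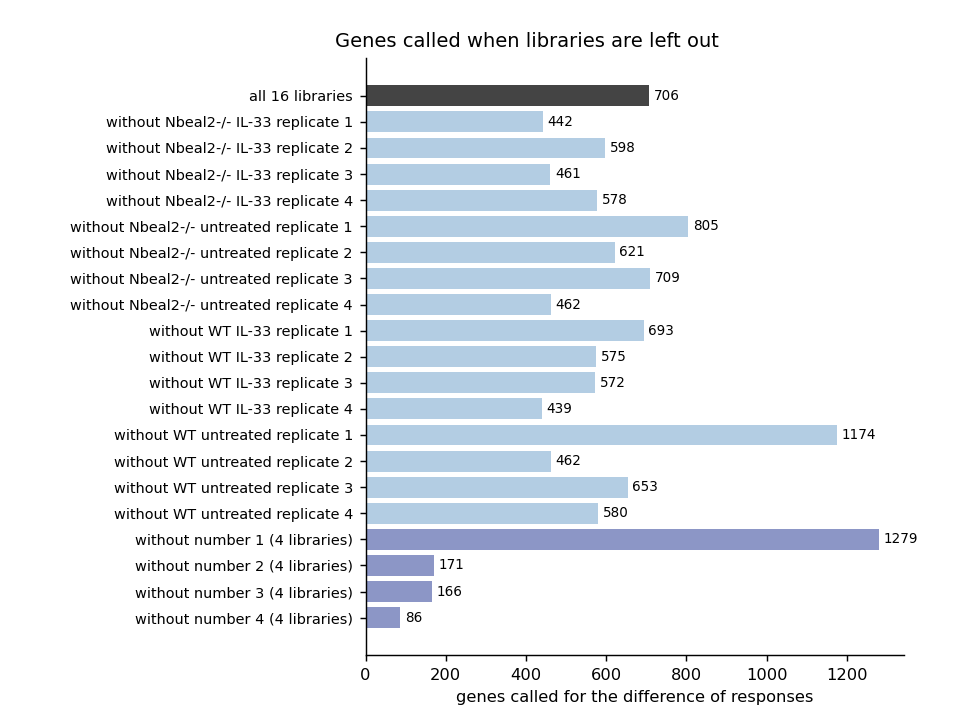
Bars give the number of genes called for the difference of responses with all libraries, without each of the 16 libraries in turn and without each replicate number. The counts run from 86 without number 4 to 1279 without number 1, against 706 with all libraries.

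Genes of mitosis made up the clearest group of larger falls. Of 40 tested genes of mitosis and the spindle, 34 were called negative and none positive, and all 34 belonged to the class of larger falls. By the single responses, 39 of the 40 fell in Nbeal2-/- and 30 fell in WT. The list had a median difference of -0.58, with median responses of -0.89 in Nbeal2-/- and -0.36 in WT. The members Ttk, Kif23, Cenpf, Knl1, Hmmr and Pttg1 missed the threshold, and Pttg1, the securin, lay above 0 at 0.08 (adjusted p = 0.799, edgeR). Without any 1 library 27 to 35 members were called, but only 5 without replicate number 2, 8 without number 4 and 17 without number 3. With the culture block those last 3 counts were 31, 25 and 24.

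Cdc20, the activator of the anaphase-promoting complex, had 26.1, 25.5, 26.6 and 28.2 CPM in Nbeal2-/- cells with IL-33, against 64.6, 60.5, 61.3 and 61.1 CPM untreated. WT cells had 25.9, 27.4, 22.6 and 29.9 CPM with IL-33, against 42.1, 35.4, 33.6 and 40.9 CPM untreated. With IL-33 the genotypes overlapped, and untreated Nbeal2-/- libraries all lay above untreated WT libraries. The responses were -1.22 in Nbeal2-/- and -0.52 in WT, a difference of -0.70 ± 0.11 (log2, SE; adjusted p = 0.0024, edgeR).

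Tpx2, which activates Aurora A kinase on the spindle, had 79.9, 82.3, 80.4 and 81.9 CPM in Nbeal2-/- cells with IL-33, against 155, 160, 163 and 162 CPM untreated. In WT cells it had 96.8, 89.2, 84.5 and 99.8 CPM with IL-33, against 131, 112, 111 and 131 CPM untreated. Nbeal2-/- libraries were thus the lowest of all with IL-33 and the highest of all without it. The difference was -0.59 ± 0.08 (adjusted p = 0.00117, edgeR). Espl1, the separase that cleaves cohesin, fell by 0.65 (log2) in Nbeal2-/- cells and stood at -0.03 in WT, a difference of -0.62 ± 0.09 (adjusted p = 0.0012). It had 41.1, 39.9, 41.2 and 43.1 CPM in Nbeal2-/- cells with IL-33, against 64.5, 67.7, 65.5 and 62.6 CPM untreated. WT libraries overlapped, at 51.5, 46.8, 45.5 and 54.3 CPM with IL-33 against 51.5, 50.2, 45.0 and 55.9 CPM untreated. Kif2c, a kinesin that depolymerises microtubules at kinetochores, differed by -0.66 ± 0.11 (adjusted p = 0.00244). Sapcd2, a regulator of spindle orientation, was low but fell further, averaging 3.55 CPM in Nbeal2-/- cells with IL-33 and 13 CPM untreated, against 5.03 CPM in WT cells with IL-33 and 8.6 CPM untreated, a difference of -1.09 ± 0.14 (adjusted p = 0.000561).

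**Figure D3:**
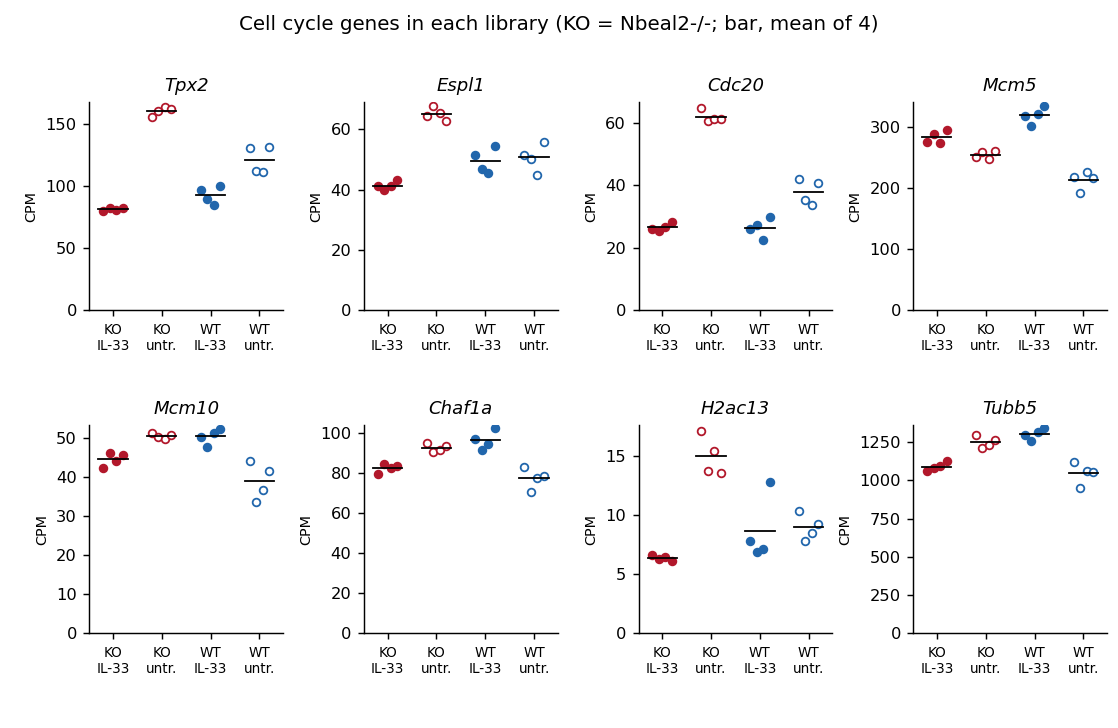
Each panel shows the CPM of 1 cell cycle gene in the 16 libraries, as points with a bar at the group mean, in Nbeal2-/- (KO) cells with IL-33 and untreated (untr.) and then in WT cells with IL-33 and untreated. For Tpx2 the untreated Nbeal2-/- libraries sit at 155 to 163 CPM, above every other library, and for Mcm10 the IL-33 effect runs in opposite directions in the genotypes.

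DNA replication genes showed another form of the same sign. Of 36 tested, 27 were called negative and none positive, with a median difference of -0.42. Median responses were -0.11 in Nbeal2-/- and 0.34 in WT. Of the 27, 14 had a negative response in Nbeal2-/- beside a positive one in WT, 11 a smaller rise and 2 a larger fall. Both single responses passed the threshold in 3 of those 14. By the single responses, 23 of the 36 rose in WT and 3 fell, whereas 6 rose and 16 fell in Nbeal2-/-. The count was 25 to 34 without any 1 library, and 19, 11 and 3 without replicate numbers 2, 3 and 4, or 12, 13 and 8 with the culture block.

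Mcm5, a subunit of the MCM2-7 helicase that unwinds DNA, had 275, 289, 274 and 295 CPM in Nbeal2-/- cells with IL-33, against 251, 260, 248 and 261 CPM untreated. WT cells had 319, 302, 322 and 334 CPM with IL-33, against 219, 193, 227 and 217 CPM untreated. It rose in both genotypes, by 0.15 in Nbeal2-/- and 0.58 in WT, and no groups overlapped. The difference was -0.43 ± 0.07 (adjusted p = 0.00267, edgeR). Mcm10, which helps activate that helicase, moved in opposite directions. It had 42.4, 46.1, 44.1 and 45.7 CPM in Nbeal2-/- cells with IL-33, against 51.1, 50.1, 49.6 and 50.8 CPM untreated. WT cells had 50.3, 47.7, 51.1 and 52.4 CPM with IL-33, against 44.0, 33.7, 36.6 and 41.6 CPM untreated. The Nbeal2-/- libraries fell without overlap and the WT libraries rose without overlap, a difference of -0.55 ± 0.09 (adjusted p = 0.00316). Chaf1a, the large subunit of the histone chaperone CAF-1, averaged 82.5 CPM in Nbeal2-/- cells with IL-33 and 92.6 CPM untreated, against 96.3 CPM in WT cells with IL-33 and 77.4 CPM untreated, a difference of -0.48 ± 0.07 (adjusted p = 0.001). The origin licensing factor Cdc6 rose less in Nbeal2-/- cells, at 0.19 against 0.61 in WT, and differed by -0.43 ± 0.07 (adjusted p = 0.00244).

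The culture values of both lists kept the genotypes apart. The median response of the mitosis list was -0.92 ± 0.026 over the 4 Nbeal2-/- cultures and -0.354 ± 0.061 over the 4 WT cultures (SD). That of the replication list was -0.106 ± 0.087 in Nbeal2-/- and 0.32 ± 0.093 in WT. In neither list did a culture of one genotype reach the range of the other, while the median over all genes tested lay between -0.023 and 0.001 in Nbeal2-/- and between -0.003 and 0.026 in WT. The median difference of the mitosis list ran from -0.63 to -0.51 over every alternative of the test and every library or number left out, and that of the replication list from -0.47 to -0.38.

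**Figure D4:**
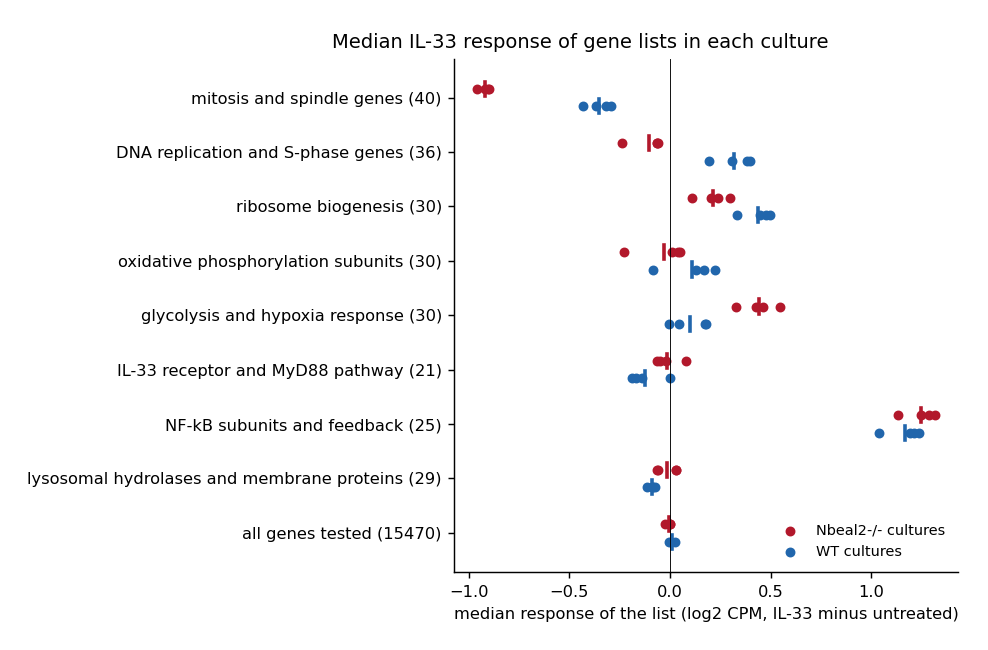
Each point is the median response of a gene list in 1 culture (log2 CPM, IL-33 minus untreated library of the same number), for Nbeal2-/- and WT cultures. The mitosis list lies near -0.92 in Nbeal2-/- and -0.354 in WT, the replication list lies on either side of 0, and the ranges of the IL-33 receptor and NF-kB lists overlap between genotypes.

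The plot of list medians also carries other lists, for some of which the genotypes overlapped. The gap between genotypes in each condition is set out beside these results because it uses the same libraries as the difference. Over all genes tested, Nbeal2-/- was called higher than WT in 18.4% and lower in 17.5% untreated, and higher in 5.49% and lower in 5.69% with IL-33. Of the 40 mitosis genes 33 were called higher and none lower in untreated Nbeal2-/- cells, and none higher and 10 lower with IL-33. Of the 36 replication genes 30 were higher and 1 lower untreated, and none higher and 13 lower with IL-33. These are bulk RNA levels, in which fewer cycling cells and less RNA per cell cannot be told apart.

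Promoters of a pair of called mitosis genes and a pair of called replication genes are shown because both lists differed with the same sign and because cell cycle promoters carry well-known elements. Each is the stretch of 200 bases before the RefSeq start on GRCm38.p6, on the gene's own strand, with capitals for matches on either strand to the CCAAT box (CCAAT), the cell cycle homology region or CHR (TTTGAA) and the E2F element (TTTNNCGC). Neighbouring E2F matches on opposite strands overlap.
Cdc20, chr4:118437344-118437543, minus strand: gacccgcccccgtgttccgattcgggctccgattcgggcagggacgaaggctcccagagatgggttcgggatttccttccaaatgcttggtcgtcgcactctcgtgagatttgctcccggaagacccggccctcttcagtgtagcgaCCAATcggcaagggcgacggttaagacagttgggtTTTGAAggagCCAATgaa
Espl1, chr15:102296093-102296292, plus strand: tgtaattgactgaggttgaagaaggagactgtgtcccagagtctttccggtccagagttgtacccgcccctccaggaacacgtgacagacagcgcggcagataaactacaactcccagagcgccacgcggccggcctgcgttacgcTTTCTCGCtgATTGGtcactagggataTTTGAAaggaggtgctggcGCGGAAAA
Mcm5, chr8:75109309-75109508, plus strand: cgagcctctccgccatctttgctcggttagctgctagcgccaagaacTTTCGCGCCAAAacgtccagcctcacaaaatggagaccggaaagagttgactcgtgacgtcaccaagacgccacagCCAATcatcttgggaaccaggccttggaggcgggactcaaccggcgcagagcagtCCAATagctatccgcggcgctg
Mcm6, chr1:128359706-128359905, minus strand: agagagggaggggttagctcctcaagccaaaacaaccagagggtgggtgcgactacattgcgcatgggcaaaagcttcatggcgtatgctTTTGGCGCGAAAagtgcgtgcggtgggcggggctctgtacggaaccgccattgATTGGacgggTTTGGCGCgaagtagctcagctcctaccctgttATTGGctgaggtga
Mcm6, another helicase subunit, was picked after its matches were seen, and differed by -0.35 ± 0.07 (adjusted p = 0.00651, edgeR), with 0.06 in Nbeal2-/- and 0.40 in WT. The Cdc20 stretch holds a CHR between its 2 CCAAT boxes, Espl1 holds all 3 elements, and Mcm5 and Mcm6 hold CCAAT boxes and overlapping E2F matches without a CHR.

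Over the 250 bases before the start of the 10170 tested genes with a RefSeq promoter, 37.1% held a CCAAT box, 10.9% a CHR and 7.23% an E2F match. Of the 34 mitosis genes with a promoter, 24 (70.6%) held a CCAAT box, 11 (32.4%) a CHR and 2 (5.88%) an E2F match. Of the 30 replication genes, 19 (63.3%) held a CCAAT box, 3 (10%) a CHR and 8 (26.7%) an E2F match. Among the 133 genes of the larger-fall class with a promoter the shares were 62.4% for the CCAAT box, 33.8% for the CHR and 14.3% for E2F. Genes negative in Nbeal2-/- and positive in WT, 93 with a promoter, had 43.0% for the CCAAT box, 14.0% for the CHR and 17.2% for E2F, and the 69 genes with a smaller rise had 43.5%, 14.5% and 17.4%. The 3 classes with a positive difference had 31.1% to 32.6% for the CCAAT box, 7.87% to 13% for the CHR and 2.25% to 6.6% for E2F. The matches describe letters in a window and were not tested as binding sites.

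Genes of the G1 phase gave 7 negative calls of 22 tested and none positive, and those counts were not stable. Of the 7, 3 were larger falls and 4 were negative in Nbeal2-/- and positive in WT, with both single responses called in 2 of those 4. Negative calls numbered 1 without WT IL-33 replicate 4, 2 without untreated WT replicate 2 or Nbeal2-/- IL-33 replicate 1 or 4, and 3 or 4 without any of 9 other libraries. Positive calls numbered 3 without untreated WT replicate 1, and with the culture block there were 5 negative and 2 positive calls. Cdkn2c, the p18 inhibitor of the G1 cyclin-dependent kinases, fell by 1.48 in Nbeal2-/- and by 0.89 in WT, a difference of -0.59 ± 0.13 (adjusted p = 0.012, edgeR). E2f7, a repressor of E2F targets, differed by -0.53 ± 0.13 (adjusted p = 0.0228), but that call was lost without WT IL-33 replicate 4 or Nbeal2-/- IL-33 replicate 1, with an adjusted p of up to 0.0576. The tubulin genes Tubb5 and Tuba1b, picked after their values were seen, moved in opposite directions. Tubb5 averaged 1090 CPM in Nbeal2-/- cells with IL-33 and 1251 CPM untreated, against 1303 CPM in WT cells with IL-33 and 1046 CPM untreated, a difference of -0.52 ± 0.07 (adjusted p = 0.00061). Tuba1b had responses of -0.33 in Nbeal2-/- and 0.22 in WT, a difference of -0.55 ± 0.10 (adjusted p = 0.00616). Cks1b, a cofactor of cyclin-dependent kinases, differed by -0.60 ± 0.14 (adjusted p = 0.0186), with -0.29 in Nbeal2-/- and 0.30 in WT. Rad54b, a motor of homologous recombination, stood at -0.35 in Nbeal2-/- and 0.23 in WT and differed by -0.58 ± 0.12 (adjusted p = 0.00941).

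The size of the difference in clustered histone genes depended on 1 library. Of 59 tested in the clusters of chromosomes 3, 11 and 13, 13 were called negative, all of the H2A type on chromosome 13, and the median difference was -1.75. With the culture block 20 were called, the 13 and 7 others of the H1, H2A, H3 and H4 types. WT IL-33 replicate 4 held 778 CPM of the summed transcripts of the 59, against 359 to 435 CPM in the other WT libraries with IL-33. The sums were 335 to 369 CPM in Nbeal2-/- cells with IL-33 and 525 to 698 CPM untreated, and 350 to 474 CPM in untreated WT cells. Without that library the median difference was -0.66, 12 genes were called and 56 of 59 lay below 0. Among the called genes, H2ac13 had 6.63, 6.32, 6.45 and 6.14 CPM in Nbeal2-/- cells with IL-33, against 17.1, 13.8, 15.5 and 13.6 CPM untreated. In WT cells it had 7.83, 6.88, 7.14 and 12.8 CPM with IL-33, against 10.4, 7.8, 8.5 and 9.28 CPM untreated. The Nbeal2-/- groups lay apart, and the WT groups overlapped. Its difference was -1.18 ± 0.22 (adjusted p = 0.00565, edgeR), and -0.93 without WT IL-33 replicate 4 (adjusted p = 0.00294). The genes H2ac10, H2ac8, H2ac7 and H2ac4 differed by -1.15, -1.1, -0.98 and -1.1. Histone genes are near-identical copies and most of their messages lack a poly(A) tail, so their single values are uncertain.

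Growth genes followed with fewer calls. Myc, the growth transcription factor, had 204, 186, 198 and 195 CPM in Nbeal2-/- cells with IL-33, against 301, 271, 262 and 244 CPM untreated. WT cells had 160, 160, 166 and 162 CPM with IL-33, against 166, 168, 168 and 169 CPM untreated. All Nbeal2-/- libraries lay above all WT libraries, and the response was -0.46 in Nbeal2-/- and -0.05 in WT, a difference of -0.41 ± 0.07 (adjusted p = 0.00358, edgeR). Ribosome biogenesis genes had a median response of 0.20 in Nbeal2-/- and 0.42 in WT, and 3 of 30 were called, all negative, with 1 to 5 called without any 1 library and 5 with the culture block. The snoRNP protein Nop56 differed by -0.35 ± 0.08 (adjusted p = 0.018). Ncl, or nucleolin, differed by -0.28 and the pseudouridine synthase Dkc1 by -0.41, but their calls were lost when any 1 of 9 and of 11 of the 16 libraries was left out, with an adjusted p of up to 0.0775 and 0.074. The transferrin receptor Tfrc, an iron importer, rose by 0.21 in Nbeal2-/- and 0.65 in WT, a difference of -0.44 ± 0.06 (adjusted p = 0.00117). Of 30 genes of the respiratory chain only Cyc1, the cytochrome c1 subunit, was called, at -0.31 (adjusted p = 0.0275), a call lost without any of 8 libraries with an adjusted p of up to 0.0662. The share called, 3.33%, was near the 4.56% of all genes tested. All 30 differences nonetheless lay below 0, beside 47.8% of all genes tested, with a median of -0.15. Culture medians of that list overlapped, at -0.23 to 0.048 in Nbeal2-/- and -0.083 to 0.225 in WT.

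Genes of glycolysis and the hypoxia response depended on the model. Their median response was 0.43 in Nbeal2-/- and 0.11 in WT, with culture values of 0.44 ± 0.091 in Nbeal2-/- and 0.099 ± 0.091 in WT (SD, n = 4 each). Of 30 tested, 1 was called (3.33%, beside 4.56% of all genes tested), Pfkfb3, which makes an activator of phosphofructokinase. Its difference was 0.50 (adjusted p = 0.045, edgeR), and the call was lost without any of 10 libraries with an adjusted p of up to 0.103. With the culture block 16 of the 30 were called, all positive. None of the 30 was higher and 23 were lower in untreated Nbeal2-/- cells than in untreated WT cells.

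Genes that moved in opposite directions outside the cell cycle were of mixed kinds. Fabp5, a fatty acid binding protein, had 16.3, 17.2, 16.1 and 17.9 CPM in Nbeal2-/- cells with IL-33, against 21, 17.6, 18.9 and 18 CPM untreated. WT cells had 8.46, 9.36, 9.14 and 8.80 CPM with IL-33, against 6.14, 5.67, 6.28 and 5.50 CPM untreated. The WT groups lay apart, and the Nbeal2-/- groups overlapped slightly. The difference was -0.76 ± 0.10 (adjusted p = 0.000523, edgeR). Etv5, an ETS transcription factor induced by MAP kinase signalling, differed by -0.77 ± 0.15 (adjusted p = 0.00674), with -0.36 in Nbeal2-/- and 0.41 in WT. It had 15.0, 11.6, 10.6 and 11.1 CPM in Nbeal2-/- cells with IL-33, against 15.4, 16.1, 14.8 and 15.9 CPM untreated. Nbeal2-/- culture 1 thus barely moved, and the other 3 were lower with IL-33. In WT cells Etv5 had 9.33, 7.30, 6.75 and 8.20 CPM with IL-33, against 6.23, 5.99, 5.81 and 5.88 CPM untreated. Ptprcap, a partner of the phosphatase CD45, differed by -0.76 ± 0.17 (adjusted p = 0.0151).

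In the reverse direction, Acss2, which makes acetyl-CoA from acetate, had 169, 164, 160 and 156 CPM in Nbeal2-/- cells with IL-33, against 114, 128, 124 and 118 CPM untreated. WT cells had 110, 101, 99.9 and 102 CPM with IL-33, against 108, 113, 117 and 118 CPM untreated. The Nbeal2-/- libraries rose without overlap and the WT libraries overlapped. The difference was 0.57 ± 0.06 (adjusted p = 0.00022, edgeR). Snap47, a SNARE protein, averaged 42.2 CPM in Nbeal2-/- cells with IL-33 and 34.7 CPM untreated, against 42.8 CPM in WT cells with IL-33 and 53.0 CPM untreated, a difference of 0.59 ± 0.09 (adjusted p = 0.00152). Unc93b1, the chaperone of endosomal Toll-like receptors, stood at 0.47 in Nbeal2-/- and -0.34 in WT, a difference of 0.81 ± 0.14 (adjusted p = 0.00412). The kinase gene Cdkl2 differed by 0.61 ± 0.12 (adjusted p = 0.00651), and Alox8, a lipoxygenase, by 0.97 ± 0.22 (adjusted p = 0.0191).

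The largest difference in that direction among the genes named, 1.15 ± 0.21 (adjusted p = 0.0043, edgeR), was that of Nradd, a death-domain membrane protein. It had 14.2, 14.5, 14.4 and 14.4 CPM in Nbeal2-/- cells with IL-33, against 8.94, 7.25, 7.16 and 8.28 CPM untreated. WT cells had 7.01, 4.18, 3.96 and 4.17 CPM with IL-33, against 4.92, 6.58, 6.18 and 6.21 CPM untreated. The response of WT culture 1 was 0.51, while the other WT cultures lay between -0.65 and -0.57. Nradd lies 337 bases past the annotated end of Nbeal2 on chromosome 9, on the same strand. Reads running past the end of Nbeal2 could therefore touch the Nradd value, and their part in the result was not tested.

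Genes of the chymase locus, which encode granule proteases, rose less in Nbeal2-/- cells where they were called. Mcpt2, a chymase, had 74.0, 67.2, 63.4 and 73.5 CPM in Nbeal2-/- cells with IL-33, against 4.34, 3.93, 4.90 and 4.00 CPM untreated. WT cells had 215, 250, 270 and 173 CPM with IL-33, against 3.04, 2.92, 2.87 and 2.98 CPM untreated. Every WT library with IL-33 exceeded every Nbeal2-/- library with IL-33, and the order was the other way untreated. The responses were 4.02 in Nbeal2-/- and 6.26 in WT, a difference of -2.24 ± 0.17 (adjusted p = 5.48e-06, edgeR). Mcpt4, the main connective tissue chymase of mice, had 51.4, 57.0, 52.1 and 59.9 CPM in Nbeal2-/- cells with IL-33 and averaged 2.92 CPM untreated. In WT cells it had 224, 259, 298 and 213 CPM with IL-33 and averaged 3.95 CPM untreated. Its difference was -1.74 ± 0.27 (adjusted p = 0.0024). Mcpt8, which marks basophils, averaged 51.9 CPM in Nbeal2-/- cells with IL-33 and 7.61 CPM untreated, against 97.8 CPM in WT cells with IL-33 and 5.50 CPM untreated, a difference of -1.36 ± 0.29 (adjusted p = 0.0151). These 3 were the called members of 8 genes tested of the chymase locus. Mcpt genes share near-identical sequence, so reads may be split between copies.

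Tryptases differed with the opposite sign. Tpsab1, which encodes tryptase MCPT7, had 108, 114, 117 and 117 CPM in Nbeal2-/- cells with IL-33, against 0.357, 0.22, 0.326 and 0.193 CPM untreated. WT cells had 279, 280, 235 and 259 CPM with IL-33, against 2.56, 2.62, 2.40 and 4.23 CPM untreated. Nbeal2-/- libraries were the lower ones in both conditions, and more so untreated. The log2 responses were 8.69 in Nbeal2-/- and 6.46 in WT, a difference of 2.23 ± 0.27 (adjusted p = 0.000351, edgeR), whereas the gain in CPM was smaller in Nbeal2-/- by 147. Tpsb2, or MCPT6, averaged 11080 CPM in Nbeal2-/- cells with IL-33 and 3136 CPM untreated, against 18630 CPM in WT cells with IL-33 and 9761 CPM untreated. It differed by 0.89 ± 0.19 (adjusted p = 0.0113), and its gain in CPM was also smaller in Nbeal2-/-, by 919. Tpsg1, a membrane-anchored tryptase, rose by 0.78 in Nbeal2-/- and 0.23 in WT, a difference of 0.55 ± 0.12 (adjusted p = 0.015). These 3 were the called members of the 5 genes of tryptases and Cpa3. Among 5 granzymes only Gzmc was called, at 0.84 ± 0.22 (adjusted p = 0.0324), a call lost without any of 9 libraries with an adjusted p of up to 0.0723.

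**Figure D5:**
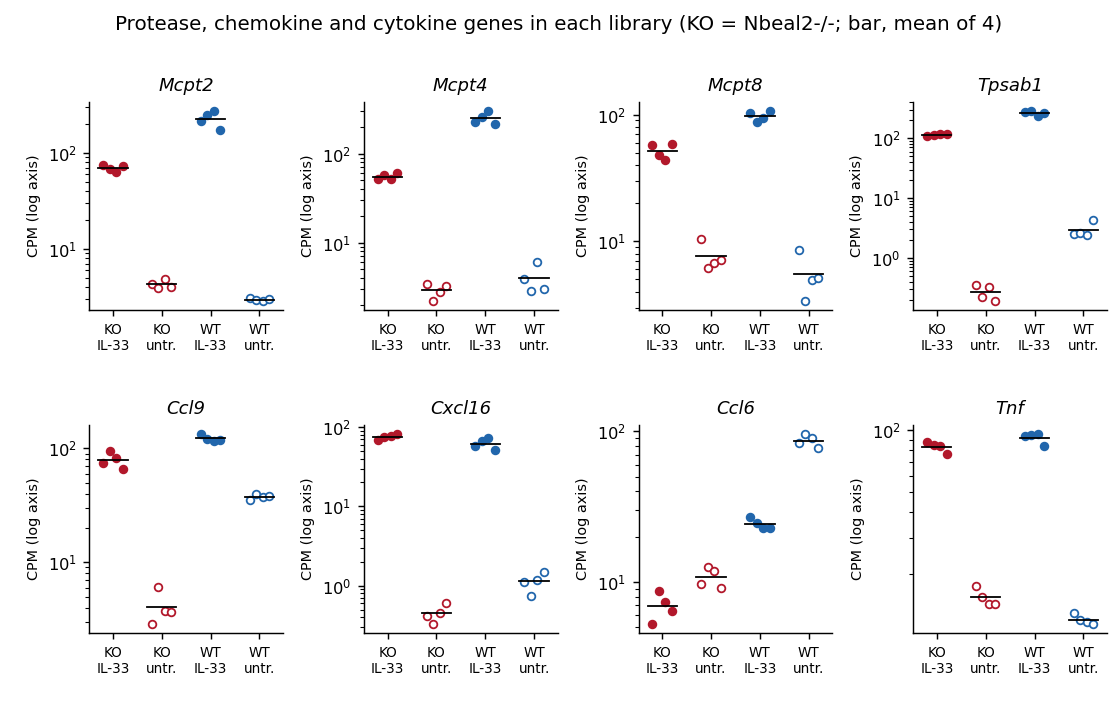
Each panel shows the CPM of 1 protease or chemokine gene in the 16 libraries on a log axis, in Nbeal2-/- (KO) cells with IL-33 and untreated (untr.) and then in WT cells with IL-33 and untreated. Mcpt2 reaches 63.4 to 74.0 CPM in Nbeal2-/- cells with IL-33 and 173 to 270 CPM in WT cells with IL-33, while for Tpsab1 and Ccl9 the untreated Nbeal2-/- libraries lie lowest.

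Chemokine genes gave 8 calls of 13, of which 6 were positive. Ccl9, a ligand of CCR1, had 75.2, 94.7, 83.1 and 65.8 CPM in Nbeal2-/- cells with IL-33, against 2.88, 6.04, 3.75 and 3.68 CPM untreated. WT cells had 133, 122, 116 and 120 CPM with IL-33, against 35.3, 39.4, 37.3 and 38.2 CPM untreated. Nbeal2-/- libraries lay below WT libraries in both conditions without overlap. The log2 responses were 4.28 in Nbeal2-/- and 1.71 in WT, a difference of 2.57 ± 0.21 (adjusted p = 9.2e-06, edgeR), and the gain in CPM was smaller in Nbeal2-/- by 9.39. Cxcl16, a membrane-bound ligand of CXCR6, had 68.5, 74.3, 77.0 and 80.7 CPM in Nbeal2-/- cells with IL-33, against 0.416, 0.329, 0.449 and 0.599 CPM untreated. WT cells had 57.8, 66.4, 72.0 and 50.9 CPM with IL-33, against 1.12, 0.743, 1.16 and 1.49 CPM untreated. The genotypes overlapped with IL-33 and lay apart untreated. Its difference was 1.65 ± 0.26 (adjusted p = 0.00244).

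Ccl4, an inflammatory chemokine, averaged 7.73 CPM in Nbeal2-/- cells with IL-33 and 3.08 CPM untreated, against 14.4 CPM in WT cells with IL-33 and 10.2 CPM untreated, a difference of 0.83 ± 0.08 (adjusted p = 8.68e-05, edgeR). Ccl6, a macrophage chemokine, fell in both genotypes and less in Nbeal2-/-. It had 5.28, 8.75, 7.37 and 6.46 CPM in Nbeal2-/- cells with IL-33, against 9.74, 12.6, 11.8 and 9.10 CPM untreated. WT cells had 27.1, 24.6, 22.9 and 22.9 CPM with IL-33, against 82.8, 95.1, 90.3 and 76.9 CPM untreated. All Nbeal2-/- libraries lay below all WT libraries, and the difference was 1.18 ± 0.18 (adjusted p = 0.00177). The remaining calls, named after their values were seen, were Ccl3, another inflammatory chemokine, at 1.00 ± 0.19 (adjusted p = 0.00665) and Ccl5 at 1.53 ± 0.41 (adjusted p = 0.0406). The gain of Ccl3 in CPM was smaller in Nbeal2-/- by 26.8. The call of Ccl5 was lost with the culture block (adjusted p = 0.0629) and without any of 11 libraries, with an adjusted p of up to 0.123.

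The negative chemokine calls were Ccl24 and Ccl2. Ccl24, or eotaxin-2, was low, with 0.471, 0.282, 0.714 and 0.518 CPM in Nbeal2-/- cells with IL-33, against 0.337, 0.183, 0.204 and 0.214 CPM untreated. WT cells had 2.53, 3.64, 2.81 and 2.99 CPM with IL-33, against 0.284, 0.247, 0.272 and 0.109 CPM untreated. The WT libraries with IL-33 stood above all others, and the difference of -2.65 ± 0.42 (adjusted p = 0.0024, edgeR) was the largest in size among the differences given here. Ccl2, a monocyte attractant named after its values were seen, averaged 79.9 CPM in Nbeal2-/- cells with IL-33 and 166 CPM untreated, against 146 CPM in WT cells with IL-33 and 198 CPM untreated. It fell further in Nbeal2-/-, by a difference of -0.62 ± 0.13 (adjusted p = 0.00941).

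Of 17 cytokine genes tested, Tnf and Ebi3 were called, both as smaller rises, while the culture block gave 4 negative and 2 positive calls. Tnf had 87.3, 84.6, 83.8 and 76.4 CPM in Nbeal2-/- cells with IL-33, against 17.6, 15.6, 14.4 and 14.3 CPM untreated. WT cells had 93.7, 94.8, 95.3 and 83.5 CPM with IL-33, against 12.9, 12, 11.7 and 11.5 CPM untreated. Genotypes overlapped with IL-33, and untreated Nbeal2-/- libraries lay above untreated WT libraries, for a difference of -0.51 ± 0.10 (adjusted p = 0.0056, edgeR). Ebi3, a subunit of IL-27, differed by -0.58 ± 0.11 (adjusted p = 0.007), although its gain in CPM was larger in Nbeal2-/- by 5.25. Of 22 genes of the TNF superfamily, 3 were called. The receptor Tnfrsf13b, or TACI, fell less, by 0.89 in Nbeal2-/- and 1.39 in WT, a difference of 0.49 ± 0.07 (adjusted p = 0.000828). The decoy receptor Tnfrsf11b differed by -1.15 ± 0.30 (adjusted p = 0.0326), with a gain in CPM that was larger in Nbeal2-/- by 4.76, and its call was lost without any of 11 libraries with an adjusted p of up to 0.0704. Tnfsf14, or LIGHT, differed by -0.37 ± 0.09 (adjusted p = 0.02), a call lost without Nbeal2-/- IL-33 replicate 1 at an adjusted p of 0.0507.

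No gene of the IL-33 receptor pathway was called among 21 tested in edgeR's test, while 5 had an unadjusted p under 0.05 and DESeq2 called 1. In the order of culture numbers, the median response of that list was 0.082, -0.052, -0.021 and -0.064 in Nbeal2-/-, against -0.001, -0.171, -0.14 and -0.189 in WT. The NF-kB list, 25 regulators and targets, had medians of 1.131, 1.246, 1.287 and 1.319 in Nbeal2-/-, against 1.039, 1.194, 1.236 and 1.211 in WT. In both lists the ranges of the genotypes overlapped, and within each number the Nbeal2-/- culture lay above the WT culture, although the labels do not pair numbers across genotypes. Its called members were Tnfaip3, Ikbke, Birc3 and Nfkbid. Tnfaip3, or A20, which shuts off NF-kB signalling, rose by 2.31 in Nbeal2-/- and 1.88 in WT, a difference of 0.43 ± 0.09 (adjusted p = 0.0137, edgeR), with a gain in CPM that was smaller in Nbeal2-/- by 3.59. The kinase Ikbke differed by 0.41 ± 0.08 (adjusted p = 0.00651). Birc3, at 0.28 (adjusted p = 0.0466), and Nfkbid, at -0.25 (adjusted p = 0.0493), were lost with the culture block, at adjusted p of 0.0547 and 0.0843, and without any of 14 libraries each.

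Immediate early genes gave 4 negative calls of 22 and none positive, Myc among them, with 1 to 6 negative calls without any 1 library. The transcription factor Junb stood at 0.18 in Nbeal2-/- and rose by 0.80 in WT, a difference of -0.62 ± 0.15 (adjusted p = 0.0252, edgeR). The transcription factor Egr2 rose by 1.96 in Nbeal2-/- and 3.15 in WT, a difference of -1.19 ± 0.29 (adjusted p = 0.0275). The call of Junb was lost without WT IL-33 replicate 4 or Nbeal2-/- IL-33 replicate 2 or 3, with an adjusted p of up to 0.0604, and that of Egr2 without any of 4 libraries, with up to 0.0646. Ier2, at -0.61 (adjusted p = 0.0476), was lost without any of 12 libraries, with up to 0.103. Of 18 dual-specificity phosphatases and Sprouty-family inhibitors, Dusp8 was called positive and Spred2 negative. Dusp8 averaged 3.56 CPM in Nbeal2-/- cells with IL-33 and 0.00496 CPM untreated, against 6.92 CPM in WT cells with IL-33 and 0.267 CPM untreated (adjusted p = 0.000879). Its untreated Nbeal2-/- libraries held 1 count in all, so no fold change is given, and its gain in CPM was smaller in Nbeal2-/- by 3.09. Spred2, at -0.40 (adjusted p = 0.0449), was lost with the culture block at 0.0777. Of 22 JAK-STAT genes, Stat3 fell less in Nbeal2-/-, by 0.66 against 1.05 in WT, a difference of 0.39 ± 0.09 (adjusted p = 0.0153). Stat6 and Stat4, both larger rises, differed by 0.25 (adjusted p = 0.0343) and 0.21 (adjusted p = 0.0403), calls lost with the culture block at 0.0537 and 0.0701.

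Antigen presentation genes of class I gave 5 positive calls of 18 and none negative, with 3 to 5 positive calls without any 1 library. Of the 5, 3 were larger rises and 2 were smaller falls. Tapbp, or tapasin, which loads peptide onto class I molecules, had 229, 218, 232 and 235 CPM in Nbeal2-/- cells with IL-33, against 80.8, 82.8, 78.7 and 79.0 CPM untreated. WT cells had 219, 218, 217 and 214 CPM with IL-33, against 99.7, 106, 109 and 101 CPM untreated. The genotypes overlapped with IL-33, and untreated Nbeal2-/- libraries were the lowest. The difference was 0.44 ± 0.05 (adjusted p = 0.00038, edgeR). The peptide transporter Tap2 fell less in Nbeal2-/-, with a difference of 0.42 ± 0.08 (adjusted p = 0.00411). The class I genes H2-Q6 and H2-Q7, near-identical copies whose reads may be shared, differed by 0.60 ± 0.14 each (adjusted p = 0.0172 and 0.0248), and the H2-Q7 call was lost without any of 4 libraries with an adjusted p of up to 0.0577. Psmb9, an immunoproteasome subunit named after its values were seen, differed by 0.38 (adjusted p = 0.0406), a call lost without any of 11 libraries with up to 0.0931. Of 11 class II genes H2-Ob alone was called (9.09%, beside 4.56% of all genes tested). It differed by 0.76 ± 0.16 (adjusted p = 0.0126), with 0.04 in Nbeal2-/- and -0.72 in WT. Of 19 interferon genes only Gbp3, a guanylate-binding protein, was called, a share of 5.26% near the 4.56% of all genes tested. It differed by -0.45 ± 0.11 (adjusted p = 0.0229), although its gain in CPM was larger in Nbeal2-/- by 2.22. That call was lost without untreated WT replicate 2, at an adjusted p of 0.0548.

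Of 35 exocytosis genes 4 were called, all positive, and 3 of them were synaptotagmin-like proteins that tie Rab27 to membranes. By class 1 of the 4 was a larger rise, 2 were smaller falls and 1 was positive in Nbeal2-/- and negative in WT. Sytl3 differed by 0.40 ± 0.06 (adjusted p = 0.001, edgeR), Sytl1 by 0.57 ± 0.12 (adjusted p = 0.0103) and Sytl2 by 0.39 ± 0.09 (adjusted p = 0.0216, lost without either of 2 libraries at up to 0.0528). The SNARE protein Stx11 rose by 1.73 in Nbeal2-/- and 1.33 in WT, a difference of 0.40 ± 0.09 (adjusted p = 0.014). Sytl1 itself fell in both genotypes, by 2.12 in Nbeal2-/- and by 2.69 in WT. Of 18 subunits of the vacuolar proton pump Atp6v0a1 alone was called, a share near the 4.56% of all genes tested. It had 165, 152, 153 and 153 CPM in Nbeal2-/- cells with IL-33, against 44.4, 47.1, 44.9 and 46 CPM untreated. WT cells had 183, 182, 187 and 176 CPM with IL-33, against 71.7, 75.2, 79.0 and 77.8 CPM untreated. Nbeal2-/- libraries were lower than WT libraries in both conditions, and the difference was 0.51 ± 0.06 (adjusted p = 0.00022). In edgeR's test no gene was called among 29 lysosomal genes, of which 7 had an unadjusted p under 0.05 and 2 were called by DESeq2, or among 9 BEACH-domain genes, the family of Nbeal2, of which 1 had such a p and DESeq2 called none. Culture medians of the lysosomal list did not overlap, at -0.064 to 0.031 in Nbeal2-/- and -0.112 to -0.073 in WT, and those of the BEACH list did.

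Outside the proteases and chemokines, larger rises included Rab11fip5 and Sema6d. Rab11fip5, an effector of the recycling endosome GTPase Rab11, averaged 65.2 CPM in Nbeal2-/- cells with IL-33 and 0.547 CPM untreated, against 83.3 CPM in WT cells with IL-33 and 2.35 CPM untreated, a difference of 1.76 ± 0.22 (adjusted p = 0.000523, edgeR). Sema6d, a semaphorin, averaged 131 CPM in Nbeal2-/- cells with IL-33 and 0.195 CPM untreated, against 182 CPM in WT cells with IL-33 and 0.895 CPM untreated, a difference of 1.72 ± 0.20 (adjusted p = 0.00022). For both the gain in CPM was smaller in Nbeal2-/-, by 16.3 for Rab11fip5 and 50.5 for Sema6d. The adhesion ligand Icam1 averaged 61.9 CPM in Nbeal2-/- cells with IL-33 and 17.0 CPM untreated, against 48.6 CPM in WT cells with IL-33 and 20.4 CPM untreated, a difference of 0.61 ± 0.12 (adjusted p = 0.00756). Itga5, the fibronectin receptor chain, rose less in Nbeal2-/-, with a difference of -0.31 ± 0.06 (adjusted p = 0.00677). These were the called genes of 17 adhesion genes, and with the culture block 3 were positive and 1 negative.

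Smaller falls included genes that IL-33 lowered strongly in both genotypes. Tgm2, or tissue transglutaminase, had 1.23, 1.26, 1.43 and 1.18 CPM in Nbeal2-/- cells with IL-33, against 18.2, 19.8, 22.5 and 18.1 CPM untreated. WT cells had 2.81, 1.51, 1.43 and 2.30 CPM with IL-33, against 68.8, 69.5, 74.2 and 64.6 CPM untreated. Untreated Nbeal2-/- libraries all lay below untreated WT libraries, and with IL-33 the highest Nbeal2-/- library and the lowest WT library both stood at 1.43 CPM. It fell by 3.95 in Nbeal2-/- and by 5.07 in WT, a difference of 1.12 ± 0.22 (adjusted p = 0.00786, edgeR). The fatty acid hydroxylases Cyp4a12a and Cyp4a12b, near-identical copies, differed by 1.02 ± 0.22 (adjusted p = 0.0137) and 1.06 ± 0.26 (adjusted p = 0.0274), and the Cyp4a12b call was lost without any of 8 libraries with an adjusted p of up to 0.064.

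Genes of the BCL2 family gave 4 positive calls of 14 and none negative, all 4 for proapoptotic BH3 proteins. By class 1 was a larger rise, 2 were smaller falls and 1 was positive in Nbeal2-/- and negative in WT. Bmf differed by 0.68 ± 0.16 (adjusted p = 0.024, edgeR), Bbc3 or PUMA by 0.43 ± 0.10 (adjusted p = 0.025), Bcl2l11 or BIM by 0.41 ± 0.10 (adjusted p = 0.0277) and Bid by 0.26 (adjusted p = 0.0405). None of the 4 was left without untreated WT replicate 2, WT IL-33 replicate 4 or Nbeal2-/- IL-33 replicate 3. The calls were lost without any of 4, 7, 8 and 12 libraries in that order, with adjusted p of up to 0.056, 0.0628, 0.0687 and 0.0848. Bid was also lost with the culture block, at 0.0583. Of 24 genes of the unfolded protein response 2 were called (8.33%, beside 4.56% of all genes tested). The chaperone Calr differed by -0.28 ± 0.07 (adjusted p = 0.0275, lost without any of 8 libraries at up to 0.0633). The sensor Ern1 differed by 0.46 (adjusted p = 0.0452, lost without any of 14 at up to 0.106 and with the culture block at 0.0641). Of 14 eicosanoid genes only Tbxas1, thromboxane synthase, was called (7.14%), at 0.25 ± 0.05 (adjusted p = 0.0122). Several lists had no called gene, namely 31 genes of sterol synthesis, 24 of the ATF4 response, 16 of mast cell identity, 15 of IgE signalling, 15 of serglycin and heparin and 8 of histamine. With the culture block 0 to 3 genes of each of these lists were called, and DESeq2 called 0 to 2 of each, where 2 to 9 of each had an unadjusted p under 0.05 in edgeR's test. Culture medians of the IgE list did not overlap, at 0.057 to 0.079 in Nbeal2-/- and -0.196 to -0.08 in WT. Those of the histamine list did not either, at 0.346 to 0.902 in Nbeal2-/- and 0.938 to 1.352 in WT. For the other lists without a call named here they overlapped.

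Markers of other cell types were examined because a shift in cell makeup could move with the difference. Megakaryocyte markers summed to 1560 to 1700 CPM in Nbeal2-/- cells with IL-33 and 2190 to 2450 CPM untreated, against 1590 to 1630 CPM in WT cells with IL-33 and 2550 to 2720 CPM untreated. Of its 5 tested genes Vwf, the platelet adhesion protein, was called at 0.57 ± 0.12 (adjusted p = 0.0129, edgeR). Culture medians of those 5 did not overlap, at -0.488 to -0.297 in Nbeal2-/- and -0.812 to -0.55 in WT. Monocyte and macrophage markers summed to 356 to 508 CPM in Nbeal2-/- cells with IL-33 and 485 to 797 CPM untreated, against 142 to 531 CPM in WT cells with IL-33 and 324 to 941 CPM untreated. The median response of those 8 genes was -0.437 ± 0.105 in Nbeal2-/- and -1.082 ± 0.284 in WT (SD over 4 cultures each), and the cultures of the genotypes did not overlap. Adgre1, or F4/80, the called gene of the 8, went the other way and averaged 20.8 CPM in Nbeal2-/- cells with IL-33 and 25.2 CPM untreated, against 11.7 CPM in WT cells with IL-33 and 8.42 CPM untreated, a difference of -0.76 ± 0.18 (adjusted p = 0.0203). Basophil markers summed to 5610 to 5870 CPM in Nbeal2-/- cells with IL-33 and 5320 to 6270 CPM untreated, against 5360 to 5890 CPM in WT cells with IL-33 and 5730 to 6770 CPM untreated, with Mcpt8 the called gene of 8.

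Progenitor markers summed to 2540 to 2700 CPM in Nbeal2-/- cells with IL-33 and 1520 to 1720 CPM untreated, against 2510 to 2740 CPM in WT cells with IL-33 and 1660 to 1800 CPM untreated. Of its 8 genes Cd34 was called at 0.30 ± 0.07 (adjusted p = 0.014, edgeR). Erythroid markers summed to 188 to 201 CPM in Nbeal2-/- cells with IL-33 and 158 to 178 CPM untreated, against 171 to 184 CPM in WT cells with IL-33 and 106 to 117 CPM untreated, with Tfrc the called gene of 8. Neutrophil markers lay between 0.713 and 2.08 CPM in every library. Eosinophil markers summed to 1.97 to 3.26 CPM in Nbeal2-/- cells with IL-33 and 7.96 to 10.6 CPM untreated. In WT cells they summed to 7.44 to 10.5 CPM with IL-33 and 18.9 to 20.8 CPM untreated. Culture medians of the 2 tested eosinophil genes did not overlap, at -1.801 to -1.218 in Nbeal2-/- and -1.16 to -0.905 in WT. The lists of neutrophils, eosinophils, lymphocytes and dendritic cells, with 1, 2, 2 and 3 tested genes, held no called gene in edgeR's test, and 1 eosinophil marker was called by DESeq2 and with the culture block. The part of such cells in the differences above was not tested.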

How the data were processed

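Qiazol RNA was turned into directional poly(A) libraries, per the labels' protocols. The submitters' processing notes name bcl2fastq 2.20.0.422, featureCounts 1.6.5 and genome build GRCm38. Aligner, annotation and strand setting are not given in the sources used, so overlapping, antisense and near-identical genes are uncertain. The authors deposited raw counts per gene, which were used as they stand. Positions came from GENCODE M21, matched by 15448 of the genes tested, and promoters from RefSeq.

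Tests used edgeR 4.0.16 in R 4.3.3: filterByExpr, TMM scaling, a model of 4 group means over all 16 libraries, and robust quasi-likelihood tests with Benjamini-Hochberg adjustment over all 15470 genes. Adjusted p-values of genes are from that edgeR test unless the culture block or a left-out library is named. That model leaves out the pairing of libraries by culture. The culture block, which keeps it, called 932 genes where the main model called 706. CPM uses TMM factors, and log2 CPM per culture a prior count of 2. The common biological coefficient of variation was 9.56%, so small differences rest on 4 libraries a group. Alternatives were a number or culture block, DESeq2 1.42.0, limma 3.58.1 voom, other filters and scaling, and leaving out libraries or numbers. The procedure was tested on simulated data in which libraries were independent, without the culture effects seen here. That test therefore cannot speak to how the calls depend on single libraries or numbers.

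For the culture responses and the culture block, but not in the main model, libraries with the same number in a genotype were taken as 1 culture. Every pair deviated together, with correlations of 0.171 to 0.34 in Nbeal2-/- and 0.288 to 0.369 in WT, each highest with its own number. The labels do not tell whether replicates were separate animals, and the p-values reflect the spread between these libraries, which may be technical. The smallest chi-square per degree of freedom between replicates was 5.34, so none were duplicates.

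The genes, lists and tests were chosen with earlier results of these data known. Named were Nbeal2; in each class up to 5 called genes with the largest difference, a mean of at least 5 CPM in a group, more than 3 counts summed in each group and culture responses that did not overlap; up to 10 such genes with both responses called in opposite directions; and, from each list, at most 4 called genes by p. Some genes that the rule picks are not reported here. Others are said to be named after their values were seen.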

Additional observations from a re-analysis of the deposited data

Results flagged for a closer look

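The 706 genes called for the difference of responses, and the 48 of them with opposite responses that each passed alone, differ between genotypes by a test of the difference itself, and the report gives their values.

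For the 102 genes examined singly, the 4 culture responses of each genotype were checked for 1 value far from the other 3 (Dixon's test, 95% critical value). It was found in 16 of 204 groups of 4, where chance gives about 1 in 20, and 11 of the 16 were cultures numbered 1. In Nbeal2-/- culture 1 the log2 response was 1.22 for Calr, -0.0314 for Etv5, -1.32 for H2ac8, -0.61 for Ptprcap, 7.28 for Rab11fip5, -0.225 for Sytl2 and -0.29 for Tubb5. In Nbeal2-/- culture 2 it was -3.86 for Cyp4a12b. In WT culture 1 it was 1.91 for Ccl9, 0.479 for Ikbke, 0.174 for Nop56 and 0.508 for Nradd. Single values stood apart at 0.736 for Cd34 in WT culture 2, 7.94 for Sema6d in WT culture 3, and 0.429 for H2ac4 and 0.849 for Itga5 in WT culture 4. In Nradd and H2ac4 the culture that stood apart had the opposite sign to the other 3.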

How the results depend on the processing

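Among 101 called genes examined singly, each kept its direction under every alternative of the test, 69 kept the call without any 1 library and 21 under every alternative. The number of calls moved more. Without a low-count filter 196 genes were positive and smaller falls numbered 73. Above a mean of 5 CPM, 31 genes exceeded 2-fold. DESeq2's Wald test called 1207 (605 positive, 602 negative). Of these, 224 were larger rises, 152 smaller rises, 242 larger falls, 255 smaller falls, 208 negative in Nbeal2-/- and positive in WT, and 126 the reverse. The culture block gave 107 of that reverse kind and 77 opposite with both called, and 932 in all; the plain number block gave 857 and voom 658.

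With a library or a whole number left out, without or with the culture block (the block with a number left out was chosen after seeing the data), counts ran from 86 to 2997 for all calls, 40 to 1572 positive, 46 to 1425 negative and 17 to 135 over 2-fold. By class they ran from 24 to 440 for larger rises, 14 to 609 for smaller rises, 25 to 362 for larger falls and 13 to 832 for smaller falls. Genes negative in Nbeal2-/- and positive in WT ran from 7 to 454, the reverse from 3 to 300, and both called from 6 to 177. Mitosis genes ran from 5 to 39, replication genes from 3 to 35, and the difference in root mean square from -0.0359 to -0.00561. The cause was not tested.

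On a linear CPM scale, with no test, the difference had the other sign for Tpsab1 (-147), Tpsb2 (-919), Ccl9 (-9.39), Ccl3 (-26.8), Rab11fip5 (-16.3), Sema6d (-50.5), Tnfaip3 (-3.59), Dusp8 (-3.09), Ebi3 (5.25), Tnfrsf11b (4.76) and Gbp3 (2.22).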
